A study of Mus musculus with 24 samples.

Results

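The gene families that build and equip the sperm were read in kidney and testis of mice that a 137Cs source irradiated with γ-rays for 485 days, 22 h on each day. The members are the genes whose symbols start with Spata, Spag, Odf, Tssk, Akap, Ropn, Catsper, or with Tex, Prm, Tnp or Adam followed by a digit, a rule that reads names and not measured values, although the families were picked with earlier results of these data known. Probes on these Illumina Mouse-6 bead arrays were named through the gene identifiers of the kidney table, which gave 67 probes for 58 genes, out of 9832 named probes for 8127 genes. Of these 58 genes, 9 had more than 1 probe. Families without a named probe here, such as Tnp and Ropn, are not described.

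The low, mid and high groups received 0.032, 0.65 and 13 μGy/min, which summed to 21, 420 and 8000 mGy, and the controls were not irradiated. The labels speak of 12 mice, 3 per group, and give neither strain nor age. Each tissue has 12 arrays, 3 per group, which the labels do not tie across tissues. Both organs were removed right after the irradiation ended, so later recovery is not covered. Nothing in the labels says that any array pooled animals, and p-values measure the spread between these arrays.

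During spermiogenesis the round spermatid repackages its DNA with protamines, grows a flagellum and forms an acrosome. Protamines (Prm) replace histones in the nucleus. The outer dense fibres (Odf) and the fibrous sheath, to which the kinase anchor Akap3 belongs, stiffen the tail. CatSper proteins form the calcium channel of the tail, Tssk genes encode kinases of spermatids, and several ADAM proteins sit on the sperm surface. The Spata, Spag and Tex names record only that a gene was found in spermatogenesis, sperm or testis. Many carriers of the Akap and Adam names, such as the mitochondrial anchor Akap1 or the sheddase Adam17, work in most tissues.

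Depth and array quality set the precision of every value. Kidney arrays detected 8879 to 10985 probes and testis arrays had 12566 to 15806 probes above a noise limit, with 39 to 44 beads per probe at the median in kidney. In kidney, control replicate 2, low replicate 2 and high replicate 2 had the lowest median correlation with the other arrays (r = 0.96 each), against 0.97 to 0.98 for the rest. In testis the high arrays H139 (r = 0.943) and H134 (r = 0.948) had the lowest, against 0.951 to 0.958 for the other arrays. The testis noise limit was 93.0 to 109.4 intensity units on control arrays, 84.5 to 100.6 on low, 98.6 to 105.5 on mid and 110.4 to 133.6 on high arrays. The high arrays thus had the highest limits, without overlap, and 12566 to 13800 probes above them against 13486 to 15151 in control. In kidney the detected probes numbered 8879 to 9846 in control, 9545 to 9726 in the low group, 10183 to 10985 in the mid group and 9622 to 10230 in the high group. The kidney table also lists the arrays' own control probes, which entered no computation here. There, the high-stringency hybridization controls are dimmer on every mid and high array than on any control or low array. The part of this in the kidney differences at the mid and high dose rate was not tested.

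Most of the families were read in testis and few in kidney. A gene counted as above background in a tissue where any of its probes passed on at least 3 of the 12 arrays. By this measure 25 of the 58 genes were above background in testis alone, 16 in both tissues, 0 in kidney alone and 17 in neither. The cut-off for a probe differed between the tissues, a detection score above 0.99 in kidney and the noise limit in testis. The kidney cut-off was the stricter one. Kidney arrays had 12922 to 14662 probes above a noise limit of the same kind, against 8879 to 10985 detected. All classes and shares given here depend on these cut-offs. Of the 67 member probes, 67.2% were above background in testis and 25.4% in kidney. Over all named probes these shares were 46.3% and 35.0%. Among member probes 41.8% were seen in testis alone, against 16.4% of named probes. The labelled tissues carried their own markers. All 6 nephron markers with a probe passed in kidney and 0 of 6 passed in testis. In testis the Leydig cell genes Insl3 and Cyp11a1 stood at 12.89 ± 0.16 and 10.95 ± 0.24 on the log2 scale of intensity (SD, n = 3 control arrays). The other Leydig cell genes with a probe were dimmer. Star stood at 7.46 ± 0.32 and passed on 11 of 12 testis arrays, and Lhcgr stood at 5.99 ± 0.98 and passed on 2.

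Nuclear packaging was represented by Prm2, one of the protamine genes. On control testis arrays it stood at 15.93, 15.88 and 15.90 on the log2 scale, close to the highest level of any probe (15.93), and on no kidney array (0 of 12) was it above background. The kidney and testis tables were normalized separately, so all levels set across the tissues are descriptions. Where a tissue was not above background on any control array, the fold is a bound, taken against the lowest signal above background on those arrays. Prm2 was at least 667-fold higher in control testis than in control kidney by that bound. Its deposited intensity was 55521 to 67433 on control arrays, 48244 to 59623 on low, 55921 to 66355 on mid and 64618 to 72515 on high arrays. After quantile normalization, which sets values by rank within an array, the 12 arrays lay between 15.85 and 15.93. Such a rank step leaves little room for a difference at the top of the scale. The high group differed from control by −0.02 ± 0.07 (SE, limma adjusted p = 0.916).

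The kinases of spermatids were all (3 of 3) seen in testis alone by the cut-off of each tissue. Tssk2 stood at 14.71, 14.68 and 14.74 in control testis, at least 292-fold above control kidney. Tssk1 stood at 12.23, 12.21 and 12.35, at least 53.5-fold above kidney. The dimmer Tssk5 probe read 8.27, 7.92 and 8.38, at least 3.18-fold above kidney. Each of the 3 kinases was above background on all 12 testis arrays.

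The channel genes were likewise seen in testis alone (3 of 3) by the cut-off of each tissue. Catsper2, a pore-forming subunit, stood at 13.28, 13.52 and 13.30 in control testis, at least 115-fold above kidney. The accessory subunit Catsperz stood at 14.21, 14.16 and 14.08, at least 197-fold above kidney. A further accessory subunit, Catsperg2, stood at 10.33, 10.41 and 10.43, at least 14.6-fold above kidney.

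Tail and axoneme genes split into 4 seen in testis alone and 2 seen in neither tissue. Odf2, an outer dense fibre protein that is also found at the centrosome, had a pair of probes. One (4150484) stood at 14.64, 14.77 and 14.66 in control testis, at least 288-fold above kidney, while the other (1660487) stood at 10.90, 11.25 and 11.12. Both probes were above background on 12 of 12 testis arrays and on 0 kidney arrays. The fibrous sheath anchor Akap3 stood at 12.80, 12.77 and 12.80, at least 77.1-fold above kidney, and Odf3l1 at 11.89, 11.82 and 11.89, at least 40.6-fold. Spag16, a protein of the central apparatus of the axoneme, was dim at 7.04, 7.18 and 7.50 and passed on 11 of 12 testis arrays. Spag4, a SUN-domain protein of spermatids, and Odf2l were above background on 0 arrays of either tissue.

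The testis ADAM genes were 9, of which 4 were seen in testis alone, 2 in both tissues and 3 in neither. Adam30 stood at 11.60 ± 0.05 and Adam6a at 10.41 ± 0.08 in control testis (SD, n = 3). The probes of Adam4 disagreed, since 6200372 read 10.58 ± 0.12 in control testis and was never above background in kidney. Probe 630577 read 6.95 ± 0.38 in kidney, above background on 12 of 12 arrays, and 6.54 ± 0.46 in testis, where 1 of 3 control arrays passed. Adam4 is therefore counted in both tissues by gene and in testis alone by its brighter probe. Adam7, which is known from the epididymis, was above background on 0 arrays.

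Adam5, a testis ADAM, was read in both tissues, at 13.11, 13.26 and 13.18 in control testis and at 7.83, 7.27 and 7.09 in control kidney, a 55.3-fold gap. Other genes of the both-tissue class showed large gaps as well. Spata24 stood at 14.96 ± 0.06 in testis and 7.77 ± 0.33 in kidney (145-fold). Spata7, a ciliary protein known for retinal degeneration in its absence, stood at 13.30 ± 0.09 and 6.45 ± 0.25 (115-fold), a kidney level that rests on 1 of 3 control arrays above background and 9 of 12 arrays in all. Akap1, which anchors protein kinase A at mitochondria, stood at 14.52 ± 0.03 and 8.18 ± 0.48 (80.7-fold). Tex30 followed at 13.11 ± 0.03 and 7.58 ± 0.11 (46.0-fold).

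Among the remaining Spata and Tex genes, Spata20, a thioredoxin-like protein, stood at 13.87, 13.85 and 13.95 in control testis and was never above background in kidney (at least 165-fold). Spata25 and Spata31 were at least 78.8-fold and 20.8-fold above kidney, Tex45 at least 16.4-fold and Tex52 at least 3.84-fold. In all, 24 genes had such a bound in favour of testis, which exceeded 10-fold for 16 of them and 100-fold for 6. Of the 8 ADAM genes outside the testis ADAM group only Adam17 and Adam11 were above background in both tissues. Their gaps were 0.31 and 0.10 on the log2 scale with overlapping arrays. The Adam11 probe passed on just 3 kidney and 5 testis arrays (1 and 2 of the 3 controls). Adam12 and Adam23 passed in testis alone, each on 7 of 12 arrays. By a noise limit as in testis, Adam12 would have passed in kidney too. Its deposited intensity there was 72.5, 79.3 and 68.0 on the high arrays, against limits of 43.4, 50.6 and 43.6. The same holds for Akap17b, with 72.0, 58.6 and 55.6 on the low kidney arrays against limits of 53.9, 39.7 and 47.9. Catsper2, Tssk5 and Tex10 also had some kidney signal, with control means of 5.74 ± 0.20, 5.84 ± 0.36 and 5.99 ± 0.65 (SD, n = 3). Whether these genes would pass by that limit was not tested. The nuclear anchors Akap8 and Akap8l were 2.55-fold and 3.54-fold higher in testis.

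The 17 genes read in neither tissue were Spata2, Spata5l1, Spata9, Spata33, Tex9, Tex12, Spag4, Spag11a, Odf2l, Akap10, Adam7, Adam10, Adam19, Adam22, Adam25, Adam28 and Adam34. By the cut-off of each tissue, none of these passed on more than 2 of the 12 testis arrays, or on any kidney array (0). By a noise limit as in testis, Adam28 would have counted in kidney alone. Its probe 6510504 had deposited intensities of 45.0, 55.6 and 51.3 on the high kidney arrays, against limits of 43.4, 50.6 and 43.6. A probe below background gives no evidence that its gene is silent, since these probes were not checked against the transcripts.

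A few members ran the other way or showed no gap. Spata13, a guanine nucleotide exchange factor, stood at 9.78, 9.92 and 10.01 in control kidney and at 8.60, 8.43 and 8.34 in control testis, 2.72-fold higher in kidney without overlap. Akap9, an anchor of the Golgi and centrosome, was 2.22-fold higher in kidney by one probe (2470136, 9.71 ± 0.10 against 8.56 ± 0.13). By its other probe (4280048) both tissues stood at the same level (9.24 ± 0.07 and 9.23 ± 0.04). Tex261, a membrane protein of the early secretory pathway, stood at 9.06, 8.29 and 8.75 in kidney and 8.57, 8.66 and 8.73 in testis, and the tissues overlapped. Of the 15 genes whose brightest probe was above background in both tissues, 12 had the higher mean in testis, and the median gap was 1.74 on the log2 scale (range −1.45 to 7.18).

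**Figure D1:**
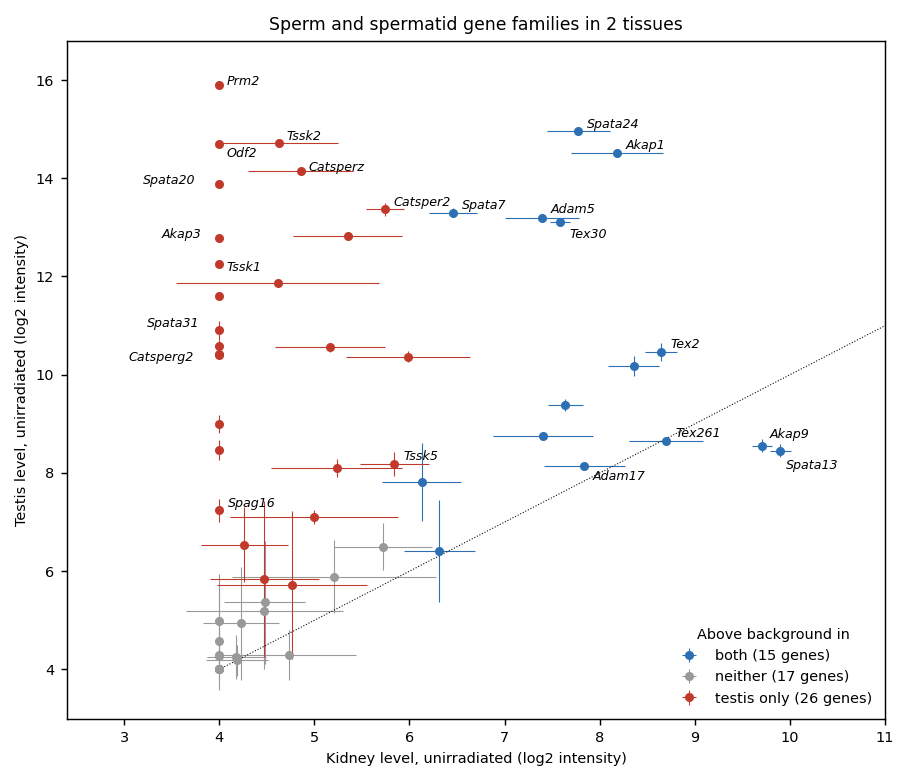
Mean level of each of the 58 genes on the 3 unirradiated kidney arrays (horizontal axis) and testis arrays (vertical axis), both as log2 intensity, with bars for the SD and a dotted line where the axes are equal. Colours follow the brightest probe, so Adam4 counts as testis only (26 genes) and 15 genes are above background in both tissues. A level of 4 is the floor of 16 intensity units, where Prm2, Odf2, Akap3 and others lie in kidney.

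Upstream sequence was compared with this tissue pattern. RefSeq promoter records (GRCm38.p6) were found for 45 of the 58 genes, by gene symbol, and the 250 bases before the first listed start were read. The sequences below are shown because they set the CpG-poor promoters of genes seen in testis alone (Prm2, Akap3, Tssk2 and Spata31) beside the CpG-rich ones of genes seen in both tissues (Tex261 and Akap9). Capitals mark CG pairs and each sequence runs 5′ to 3′ towards the start.
Prm2 (chr16:10792106-10792355, minus strand): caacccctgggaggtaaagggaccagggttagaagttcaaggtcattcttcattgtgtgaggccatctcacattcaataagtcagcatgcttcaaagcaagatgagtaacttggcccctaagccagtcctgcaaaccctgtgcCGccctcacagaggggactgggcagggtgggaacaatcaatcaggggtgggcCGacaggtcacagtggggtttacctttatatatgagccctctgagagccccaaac
Akap3 (chr6:126852848-126853097, plus strand): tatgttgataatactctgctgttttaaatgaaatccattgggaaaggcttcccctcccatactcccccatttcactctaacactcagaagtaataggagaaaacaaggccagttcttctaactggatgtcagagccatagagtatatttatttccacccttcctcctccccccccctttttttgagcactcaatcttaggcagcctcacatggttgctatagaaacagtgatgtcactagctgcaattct
Tssk2 (chr16:17898387-17898636, plus strand): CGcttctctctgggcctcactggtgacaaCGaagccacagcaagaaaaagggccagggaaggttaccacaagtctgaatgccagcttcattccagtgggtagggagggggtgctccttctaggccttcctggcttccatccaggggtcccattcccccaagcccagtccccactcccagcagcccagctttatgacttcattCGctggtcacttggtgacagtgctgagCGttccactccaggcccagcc
Spata31 (chr13:64917156-64917405, plus strand): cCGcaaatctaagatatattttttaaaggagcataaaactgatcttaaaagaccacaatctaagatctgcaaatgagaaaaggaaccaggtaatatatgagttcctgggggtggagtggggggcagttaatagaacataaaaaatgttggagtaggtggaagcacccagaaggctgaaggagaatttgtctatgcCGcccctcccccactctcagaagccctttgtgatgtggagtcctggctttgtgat
Tex261 (chr6:83775813-83776062, minus strand): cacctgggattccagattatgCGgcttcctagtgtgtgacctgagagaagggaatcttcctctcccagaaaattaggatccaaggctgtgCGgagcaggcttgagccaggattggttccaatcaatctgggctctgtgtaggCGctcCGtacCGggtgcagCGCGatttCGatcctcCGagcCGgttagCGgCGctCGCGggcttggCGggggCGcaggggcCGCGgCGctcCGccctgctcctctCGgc
Akap9 (chr5:3927936-3928185, plus strand): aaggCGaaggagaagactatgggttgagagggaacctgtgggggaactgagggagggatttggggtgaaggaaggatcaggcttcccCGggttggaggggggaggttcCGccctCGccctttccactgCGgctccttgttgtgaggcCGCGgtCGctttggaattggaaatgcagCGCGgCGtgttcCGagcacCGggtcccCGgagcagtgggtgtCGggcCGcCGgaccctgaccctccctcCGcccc

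The windows of Prm2, Akap3, Tssk2 and Spata31 held 2, 0, 4 and 2 CpG pairs, against 21 for Tex261 and 18 for Akap9. Over the 20 genes seen in testis alone the median was 3.5 CpG pairs (range 0 to 35), and over the 11 genes seen in both tissues it was 21 (range 3 to 41). The 14 genes seen in neither tissue had a median of 15.5, and all 27025 promoters of the table had a median of 6. Exceptions lay on both sides. Catsper2 and Odf2 were seen in testis alone with 35 and 22 CpG pairs, and Akap1 was seen in both tissues with 3. Only the first listed start of each gene entered these counts, and another start of a gene can differ. The classes also depend on the unequal cut-offs of the tissues. Akap17b (8 CpG pairs), seen in testis alone, would count in both by a noise limit as in testis.

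The letters TATAAA, searched on both strands, lay in 4 of the 20 testis-only windows (Prm2, Adam6a, Adam6b and Tex10) and in 0 of the 11 windows of genes seen in both tissues. Over all promoters 13.0% held them. The cAMP response element TGACGTCA, which reads the same on both strands, lay in 1 member window, that of Spag4, and in 1.62% of all promoters. Its shorter form TGACG, which lies within the full element, was found on either strand in 17.8% of the 45 member windows and in 17.9% of all promoters. These matches describe letters in 1 window per gene and say nothing about binding.

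**Figure D2:**
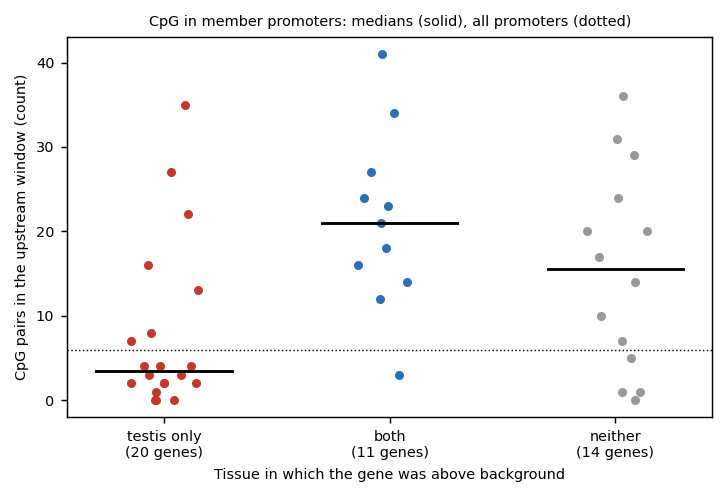
CpG pairs counted in the 250 bases before the first listed start, 1 point per gene, for 20 members seen in testis alone, 11 seen in both tissues and 14 seen in neither. Solid lines are the medians (3.5, 21 and 15.5) and the dotted line is the median of all promoters (6).

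The second question of the design was whether the families differed after irradiation. In testis 41 of the 58 genes passed the filter and were tested within a limma fit over 16325 probes. At adjusted p under 0.05, 0 members were called at the low dose rate, where 0% of all probes were called, and 0 at mid, where 0% were called. At the high dose rate 0 members were called against 0.0123% of all probes (2 probes), and over the dose-rate rank 0 against 0.00613% (1 probe). The F test over the 3 irradiated groups called 0 members and 0% of probes. Unadjusted p lay under 0.05 for 1, 4 and 5 of the 41 members at low, mid and high dose rate, against 3.46%, 9.6% and 14.8% of all probes. The rank trend gave 6 members against 16.3% of probes and the F test gave 5 against 13%. These shares lie near the background, so the unadjusted counts are no result about the families. With trend and robust moderation in limma, Spata25 was called at mid, where 1.23% of all probes were called. Under the same moderation Akap3 and Spata31 were called at high dose rate (2.36% of probes), over the trend (2.61%) and by F (3.01%), so 1 to 2 of 41 members lay near the background there too.

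The median log2 difference of the 41 testis members was +0.02 for the low group, −0.06 for the mid group and −0.09 for the high group, against 0.00, −0.02 and −0.02 over all probes tested. At the high dose rate 28 of 41 members lay below control and 13 above, while 48% of all probes lay above. With each array scaled to a common median the members' medians were −0.23, −0.23 and −0.14, and those of all probes were −0.23, −0.18 and −0.04, so the members stood apart from all probes by +0.01, −0.05 and −0.11. Without H134 and H139, left out together after the data were seen, the high median was −0.0996 and 0 members were called, with the remaining high array assumed to vary like the other groups. By role, 4 of 4 tail and axoneme genes and 3 of 3 channel genes had a lower mean at the high dose rate. Odf2 counts there by its brighter probe (−0.03 ± 0.09 SE), while its other probe stood higher (+0.18 ± 0.15). Of the kinases 2 of 3 were lower and of the testis ADAM genes 4 of 6. In the other groups 4 of 7 Spata, 4 of 7 Tex and 3 of 5 other Akap genes were lower. So were 2 of 4 ADAM genes outside the testis ADAM group, and Prm2 and Spag9, each the only tested gene of its group. None (0) of these genes passed the test. In bulk tissue fewer cells of a type and less RNA per cell cannot be told apart.

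**Figure D3:**
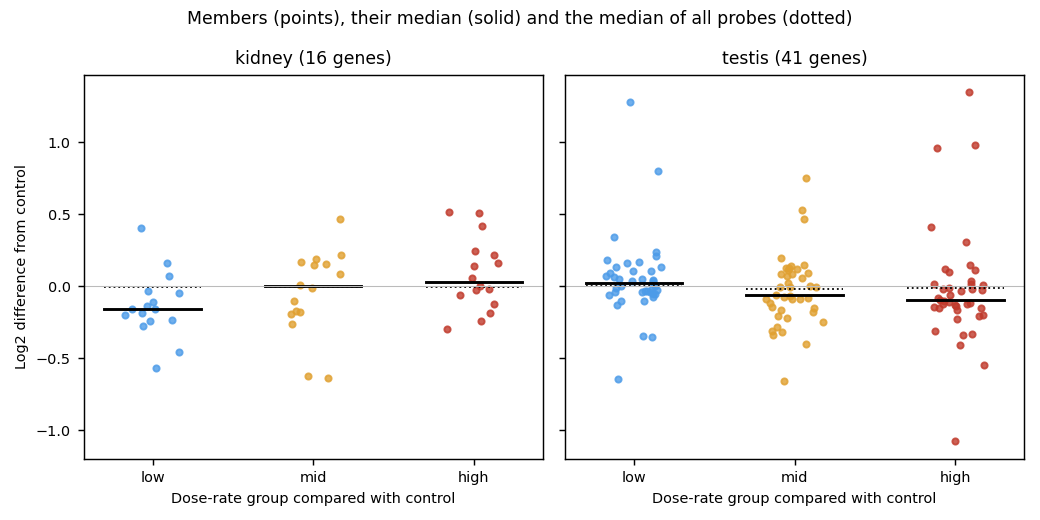
Log2 difference from control of each member above background in kidney (left, 16 genes) and testis (right, 41 genes) at the low, mid and high dose rate. Solid lines mark the members' median and dotted lines the median of all probes tested, and in testis at the high dose rate these are −0.09 and −0.02.

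Groups that did not overlap at all were counted too. In testis the 3 irradiated arrays lay wholly above or below the 3 controls for 4, 7 and 11 of 41 members in the low, mid and high groups (9.76%, 17.1% and 26.8%). Over all probes the shares were 9.17%, 18.3% and 21.2%. At the high dose rate 8 members lay wholly below control (19.5%, against 11.1% of all probes) and 3 wholly above (7.32%, against 10.1%). The 8 were Akap3, Catsperg2, Catsperz, Spata31, Spata25, Adam30, Adam17 and Spag16, and the 3 were Akap17b, Tex30 and Adam23. The dim Adam23 probe was above background on 1 control array and on 2 arrays each of the low, mid and high groups. Control array C109 lay at the floor for it, so it gives little evidence of a difference.

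Akap3 had the lowest p of any member in testis. Its level was 12.80, 12.77 and 12.80 on control arrays, 12.77, 12.79 and 12.70 at low, 12.64, 12.52 and 12.47 at mid, and 12.41, 12.60 and 12.44 at high dose rate. The controls lay within 0.03 of each other, and all mid and high arrays lay below all control and low arrays. The slope was −0.11 ± 0.03 per step of the dose-rate rank (SE, limma adjusted p = 0.116, unadjusted p = 0.00124). The difference from control was −0.25 ± 0.09 at mid (adjusted p = 0.383) and −0.31 ± 0.09 at high dose rate (adjusted p = 0.173). With trend and robust moderation in limma the adjusted p was 0.0141 for the trend and 0.0303 for the high group. Over all alternatives the slope stayed between −0.14 and −0.11.

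Catsperg2, the accessory channel subunit, showed the same order of groups. Its control arrays read 10.33, 10.41 and 10.43 and its low arrays 10.43, 10.38 and 10.27. The mid arrays read 10.12, 10.22 and 10.30 and the high arrays 10.13, 10.15 and 9.91. Mid and high arrays lay below every control array, and the slope was −0.11 ± 0.03 (SE, limma adjusted p = 0.123). The high group differed from control by −0.33 ± 0.10 (adjusted p = 0.188). Its channel partners were Catsper2, with −0.06 ± 0.09 at the high dose rate (adjusted p = 0.82), and Catsperz, with −0.13 ± 0.07 (adjusted p = 0.462).

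Spata31 read 10.96, 10.69 and 11.06 on control arrays and 10.89, 10.99 and 10.71 on low arrays. It read 10.40, 10.46 and 10.90 on mid arrays and 10.44, 10.48 and 10.15 on high arrays. The high arrays lay below every control and low array, while 1 mid array lay among the controls. The slope was −0.19 ± 0.05 (SE, limma adjusted p = 0.124) and the difference at the high dose rate −0.55 ± 0.17 (adjusted p = 0.198). With trend and robust moderation the adjusted p was 0.0141 for the trend and 0.0251 for the high group.

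Spata25 differed most at the mid dose rate. It read 12.84, 12.76 and 12.87 in control and 12.73, 12.65 and 12.91 at low dose rate. At mid it read 12.53, 12.43 and 12.59 and at high dose rate 12.63, 12.70 and 12.67. Mid and high arrays lay below all controls, with −0.31 ± 0.09 at mid (SE, limma adjusted p = 0.304, and 0.0497 with trend and robust moderation) and −0.15 ± 0.09 at high dose rate (adjusted p = 0.473). Tex45 likewise lay below all controls at mid alone, at 10.33, 10.37 and 10.36 against 10.63, 10.60 and 10.46 (−0.20 ± 0.08, adjusted p = 0.44).

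Some testis members had a higher mean after irradiation. Akap17b read 8.07, 7.95 and 8.29 in control and 8.46, 8.48 and 8.59 at high dose rate, without overlap (+0.41 ± 0.14 SE, limma adjusted p = 0.235). Tex261 read 8.57, 8.66 and 8.73 in control testis, 9.22, 9.02 and 9.32 at mid and 9.21, 9.31 and 8.36 at high dose rate. All mid arrays lay above control, and 1 high array (H139) lay below it. The differences were +0.53 ± 0.22 at mid (adjusted p = 0.471) and +0.31 ± 0.22 at high dose rate (adjusted p = 0.551). The dim X-linked Tex13c3 probe read 6.31, 7.39 and 5.92 in control, with 1 of 3 arrays above background, and 7.42, 7.20 and 7.94 at high dose rate, which overlapped (+0.98 ± 0.40, adjusted p = 0.302). It was the 1 member past an unadjusted p under 0.05 with a 1.5-fold difference at high dose rate, as were 5.88% of all probes.

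The probes of Odf2 moved apart at the mid dose rate. Probe 1660487 read 11.72, 11.66 and 11.57 there, above all its controls (+0.56 ± 0.15 SE, limma adjusted p = 0.238), and was singled out after its values were seen. The brighter probe 4150484 read 14.52, 14.64 and 14.71 at mid, overlapping its controls (−0.07 ± 0.09, adjusted p = 0.872). Tex2, a lipid-transfer protein of the endoplasmic reticulum, had a slope of −0.09 ± 0.04 in testis (adjusted p = 0.296). Spag16 read 6.83, 6.99 and 4.69 at the high dose rate, so the last array (H139) set most of its difference of −1.07 ± 0.55 (adjusted p = 0.401).

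**Figure D4:**
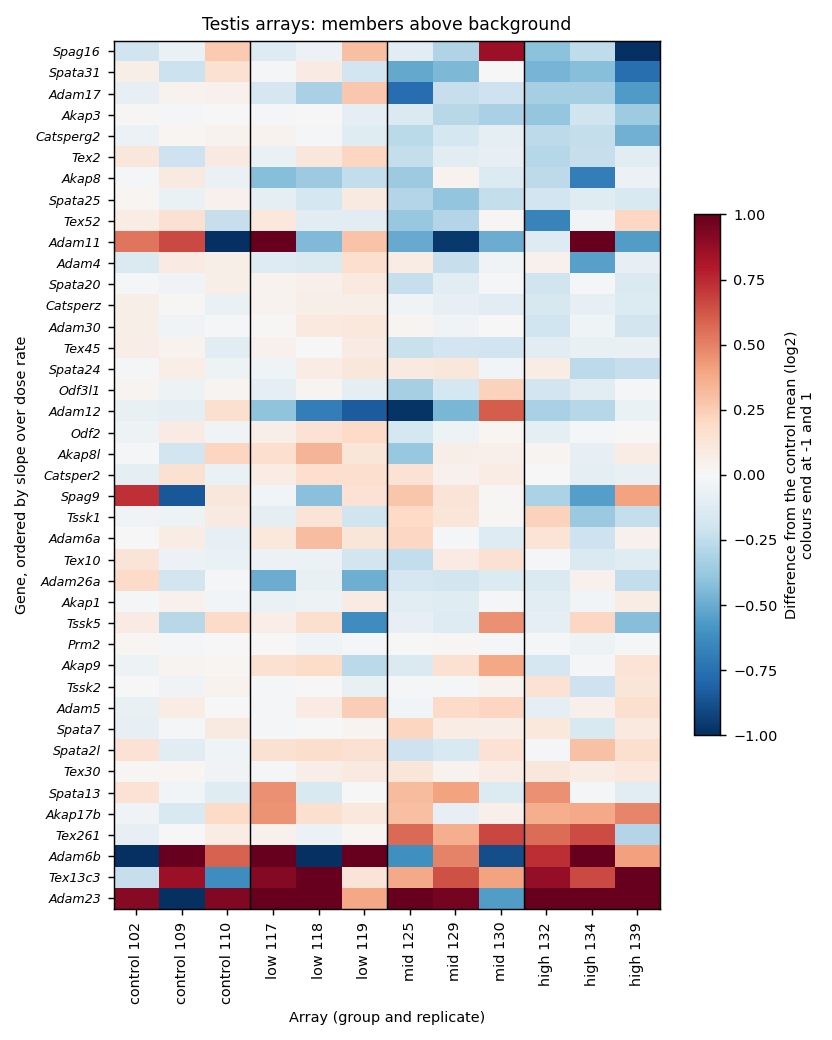
Level of each of the 41 members above background on each of the 12 testis arrays, as the log2 difference from the control mean, with blue below and red above control and colours ending at −1 and 1. Genes are ordered by their slope over the dose-rate rank, from Spag16 and Spata31 at the top to Adam23 at the bottom, and rows with strong colour within the control group, such as Adam11, Adam6b and Adam23, are dim probes.

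The spread within testis was itself uneven. Over the 24 tested members with a mean level of at least 10, the range over the 12 arrays had a median of 0.37 on the log2 scale, from 0.07 for Prm2 to 0.91 for Spata31. Over the 17 members under that level the median range was 1.03, and it reached 3.68 for Adam23.

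Genes of spermatids outside these families served as a reference in testis. Of 56 listed genes 14 had a probe and 12 were tested, among them the acrosomal protease Acr, the glycolytic enzyme Gapdhs and the flagellar Tekt3. None (0) was called, and their median differences in the low, mid and high groups were +0.03, +0.05 and −0.04, with 8, 8 and 5 of 12 above control. Their summed intensity was 130867 to 134245 in control and 129810 to 133333 at high dose rate, and the ranges overlapped. The Sertoli cell markers (4 of 12 with a probe, all 4 tested) summed to 2090 to 2166 in control and 1875 to 2717 at high dose rate. Leydig cell markers (4 of 8 with a probe, 3 tested) summed to 9070 to 11018 in control, 5126 to 9818 at mid and 8077 to 11395 at high dose rate. Spermatogonial markers (4 of 10 with a probe, 2 tested) summed to 197 to 310 in control and 247 to 347 at high dose rate, with Nanos2 and Nanos3 at the floor. The macrophage markers (5 of 7 with a probe) summed to 887 to 998 and 709 to 1106, with Cd68 at the floor. Nephron markers summed to 179 to 245 in control testis and 227 to 337 at high dose rate. The smooth muscle list had 2 of 5 with a probe (81.4 to 178.6 in control, 32 to 164 at high dose rate), and the blood list had 2 of 4 (2565 to 4069 and 2151 to 4147). The epididymis list had only Adam7, and the spermatocyte list had 0 of 16 genes with a probe. No gene (0) of these lists was called in testis. The part of any of these cell types in the member differences, and that of the noise limits of the high arrays, was not tested.

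In kidney 16 of the 58 genes passed the filter and were tested among 10903 probes. At adjusted p under 0.05, 0 members were called at the low dose rate, where 0% of probes were called. At mid 0 members were called against 0.055% of probes, and at high dose rate 0 against 0.266%. The rank trend called 0 members against 0.862% of probes and the F test 0 against 0.128%. Unadjusted p lay under 0.05 for 1, 2 and 2 members at low, mid and high dose rate, against 7%, 13% and 11.9% of probes. The trend gave 3 members against 13.3% and the F test 1 against 14.2%. Groups did not overlap for 1, 2 and 3 of the 16 members (6.25%, 12.5% and 18.8%), against 12.3%, 20.8% and 13.8% of probes. The medians of the members were −0.16, 0.00 and +0.03, and 13 of 16 lay below control at the low dose rate, while the median over all probes there was −0.01. The low median was −0.0429 without control replicate 2 and −0.261 without control replicate 4, and the mid median ran from −0.0973 to 0.054 without single arrays (the ends without control replicates 4 and 2). Kidney lists of other cells also held 0 called genes. The macrophage list had 4 of 4 tested genes above control at the low dose rate, with a median of +0.72. The nephron list had medians of −0.04, −0.11 and −0.13 over 6 genes at low, mid and high dose rate. These comparisons share the control arrays, so a low or high control moves all of them.

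Tex261 had the lowest p of any member in kidney. It read 9.06, 8.29 and 8.75 on control arrays and 8.41, 8.65 and 8.62 on low arrays. It read 9.01, 8.84 and 8.90 on mid arrays and 9.18, 9.19 and 9.27 on high arrays. The high arrays lay above all others, and control replicate 2 lay above all low and mid arrays. The slope was +0.19 ± 0.06 per rank step (SE, limma adjusted p = 0.16) and the difference at the high dose rate +0.51 ± 0.17 (adjusted p = 0.243). Without control replicate 2 the high difference was +0.69 (adjusted p = 0.0486) and the slope +0.25 (adjusted p = 0.0159), where 1.56% and 3.2% of all probes were called. Without control replicate 2, low replicate 2 and high replicate 2, left out together after the data were seen, the slope was +0.24 (adjusted p = 0.0305, 2.84% of probes called). With array weights the high difference was +0.87 (adjusted p = 0.0014), a setting under which 18.4% of all probes were called at high dose rate and 15.9% over the trend. The number of detected probes was higher on mid arrays (10183 to 10985) than on control arrays (8879 to 9846). On high arrays it was 9622 to 10230 and overlapped control. The part of the detected number in these Tex261 differences was not tested.

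Adam5 stood lower at the mid dose rate in kidney, at 6.81, 6.82 and 6.65 against 7.83, 7.27 and 7.09 in control, without overlap (−0.64 ± 0.21 SE, limma adjusted p = 0.257). At high dose rate it read 6.82, 7.48 and 6.99 and overlapped the controls. With array weights the mid difference was −0.52 (adjusted p = 0.0205, 13.7% of probes called), and under neqc background correction it was −0.20. Adam5 was the 1 member past an unadjusted p under 0.05 with a 1.5-fold difference at mid, as were 4.26% of all probes. In testis the Adam5 arrays at mid read 13.16, 13.38 and 13.40 against 13.11, 13.26 and 13.18 in control, which overlapped.

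Akap9 gave the same direction by both probes in kidney. Probe 2470136 read 9.78, 9.59 and 9.75 in control and 9.57, 9.34 and 9.44 at mid, without overlap, and 9.30, 9.58 and 9.52 at high dose rate. Its slope was −0.09 ± 0.04 (SE, limma adjusted p = 0.315), and that of probe 4280048 was −0.08 ± 0.03 (adjusted p = 0.318). Spata7 read 6.31, 6.31 and 6.75 in control, with 1 of 3 arrays above background, and 7.09, 7.01 and 6.79 at high dose rate, without overlap (+0.51 ± 0.22, adjusted p = 0.373). Tex30 read 7.70, 7.52 and 7.52 in control and 7.94, 7.95 and 8.08 at low dose rate, without overlap (+0.41 ± 0.16, adjusted p = 0.68). Its mid and high arrays spread from 7.44 to 8.09 and did not lie apart from control as a group.

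Other kidney members with low F p overlapped their controls. Spag9, a scaffold of stress kinase signalling, was above background on 0 control and 0 low arrays, 2 mid arrays and 1 high array. It thus just passed the filter and enters the kidney counts and medians, but no difference is given for it alone. Tex2 differed by −0.23 ± 0.13 at low dose rate (SE, limma adjusted p = 0.72), and Spata24 had a slope of +0.10 ± 0.06 (adjusted p = 0.486). Spata13 and Akap1 had kidney slopes of 0.00 ± 0.04 and +0.01 ± 0.07.

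**Figure D5:**
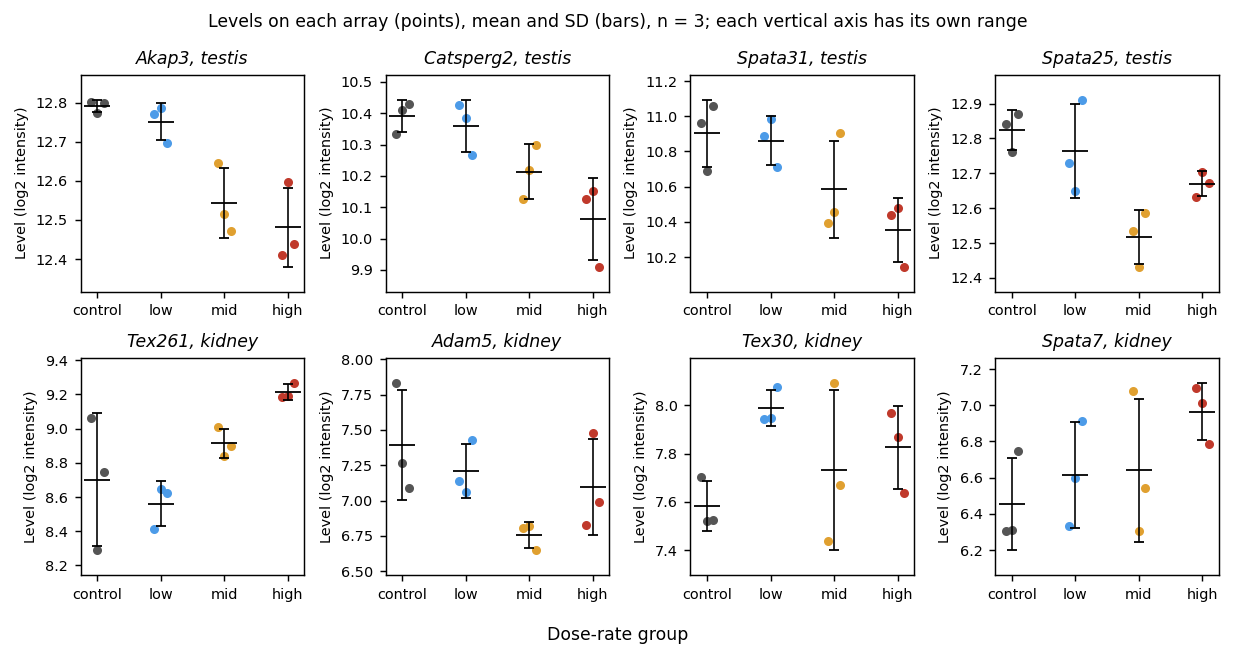
Level on each array (points) with the mean and SD of 3 arrays (bars) for Akap3, Catsperg2, Spata31 and Spata25 in testis and for Tex261, Adam5, Tex30 and Spata7 in kidney, as log2 intensity, with a vertical axis of its own in each panel. The high arrays lie below every control array in the 4 testis panels and above every control array for Tex261 and Spata7 in kidney.

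Whether the response differed between the tissues was tested for the 16 genes above background in both, over 8797 probes in a limma fit of all 24 arrays. None (0) was called, as among all probes (0%), and 3 had unadjusted p under 0.05 against 12.3% of probes. The lowest was Tex2 (adjusted p = 0.289), whose testis difference minus its kidney difference was +0.32, −0.13 and −0.27 in the low, mid and high groups. Adam5 followed with +0.29, +0.76 and +0.33 (adjusted p = 0.391) and Spata24 with +0.25, −0.10 and −0.36 (adjusted p = 0.392). Tex261 gave +0.14, +0.32 and −0.21 (adjusted p = 0.666). Its mean at the mid dose rate lay above control in each tissue. In kidney those mid arrays overlapped control (+0.21 ± 0.17 SE, limma adjusted p = 0.616). Without a filter on dim probes 1 member was called (Akap3, adjusted p = 0.0361, against 0.453% of probes), whose kidney arrays lay at the floor. With 3 arrays a group these p-values do not show that the tissues responded alike.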

How the data were processed

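Kidney and testis RNA was measured on 24 single-channel bead arrays, 12 per tissue. Per the file headers, the authors made the kidney table in Illumina BeadStudio and normalized it by the rank-invariant method. Its signal is a deposited, background-subtracted intensity. The deposited detection score is a fraction from 0 to 1, and deposited bead numbers per probe describe the arrays. Another 23 per-sample columns were not used, and the control-probe block was inspected but entered no computation. Testis intensity came from the authors' deposited value table. How those arrays were normalized is not given in the sources used. Kidney values were the same in both tables (largest difference 0).

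Of 46116 kidney probes (4 control entries left out), 11897 carried a zero-padded number, and 82.6% of these matched an NCBI gene ID of the RefSeq table (GRCm38.p6). Intensities under 16 were set to 16. The deposited intensities were then put on a log2 scale and quantile normalized within each tissue. A kidney probe was kept with a detection score above 0.99 on at least 3 arrays. A testis probe was kept if above the noise limit, percentile 99 of the values below 0 mirrored around 0, on at least 3. Differences were tested in R 4.3.3 with limma 3.58.1, two-sided, in 1 fit per tissue, with Benjamini-Hochberg adjustment over all probes and a threshold of 0.05. The trend is the slope over dose-rate rank, from 0 for control to 3. The fit across tissues treats 24 arrays as independent. The scripts were tested on simulated data. Counts by gene use the probe with the highest mean in that tissue, and levels set across tissues, with their figure, the brightest probe.

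Genes named (25 in all) were any called member, the 8 with lowest F p per tissue and the 8 with the largest gap in favour of testis. Members higher in kidney and above background there (Spata13, Akap9 and Tex261) and fixed core genes with a probe were named too. Further genes are named as examples of a count or a probe disagreement. The members and lists (spermatogonia, spermatocytes, Sertoli, Leydig, smooth muscle, macrophage, epididymis, nephron, blood and other spermatid genes) were chosen with earlier results of these data known. The number of arrays limits the precision. Alternatives changed the floor, normalization, background correction, filter, fit, moderation, array weights, probe rule, call rule, replicate block and single arrays.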

Additional observations from a re-analysis of the deposited data

How the results depend on the processing

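Of 241 counts of called members under alternatives, 227 were 0, and no result turned direction past a threshold. In kidney, array weights called 2 members at mid (Tex261 and Adam5), 1 at high, 1 over the trend and 2 by F, while 13.7%, 18.4%, 15.9% and 18.4% of all probes were called. An unadjusted p under 0.05 with a 1.5-fold difference called 1 at mid (Adam5, 4.26% of probes). Leaving out control replicate 2 called 1 at high and 1 over the trend (Tex261), so the range without single arrays was 0 to 1. Without the 3 arrays that stood apart, an alternative chosen after seeing the data, the trend called 1 (Tex261). In testis, trend and robust moderation called 1 at mid, 2 at high, 2 over the trend and 2 by F (1.23%, 2.36%, 2.61% and 3.01% of probes), and the 1.5-fold rule called 1 at high (Tex13c3, 5.88% of probes). The tissue difference called 1 member without a filter (Akap3, adjusted p = 0.0361, 0.453% of probes).

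The members' median in kidney was 0 at low without a filter and 0.18 at high without control replicate 2 (−0.028 to 0.18 without single arrays). In testis it was −0.027 at low and −0.17 at high with no further normalization, and −0.23, −0.23 and −0.14 at low, mid and high with median scaling, which moved all probes too. Without single testis arrays it ran from −0.022 (without low array L117) to 0.034 at low, from −0.080 to 0.0008 at mid (0.0008 without control array C102 and −0.0045 without mid array M125) and from −0.095 to −0.046 at high (−0.046 without high array H134 and −0.05 without C102). The median gap between tissues over all 58 members, those at the floor included, was 1.96, and 1.67 with a floor of 64. With median scaling Tex261 was 0.02 higher in testis instead of 0.05 lower. The cause of these shifts was not tested.

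Counts over all probes varied widely, from 0 to 2010 in kidney at high dose rate and 0 to 960 in testis at high dose rate. With the replicate number as a block in kidney, 0 members were called in each test, the Tex261 slope was 0.18 and the probes called at high dose rate fell from 29 to 9. Same-numbered arrays correlated at r = −0.17 to 0.36 (median 0.14, 9 of 13 pairs over 0.1) and other-numbered arrays at a median of −0.05 (8 of 41 over 0.1). All pairs of replicates 2 and 4 passed 0.1 but not all of 1 and 3, and the labels tie no numbers, so the numbers were not taken as pairs.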
